A study of Saccharomyces cerevisiae with 11 samples.

Results

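The sugar kinases HXK1, HXK2, GLK1 and EMI2, the triose phosphate dehydrogenases TDH1, TDH2 and TDH3 and the phosphoglycerate kinase PGK1 were followed in yeast cultures exposed to arsenate. They are 8 of 5641 named genes of the series, taken as every spot that carries one of these symbols in both value tables, with the spots of a gene averaged. All 8 had a value on each of the 11 arrays. Their systematic names are YFR053C (HXK1, chromosome VI), YGL253W (HXK2, VII), YCL040W (GLK1, III), YDR516C (EMI2, IV), YJL052W (TDH1, X), YJR009C (TDH2, X), YGR192C (TDH3, VII) and YCR012W (PGK1, III). Cultures of the laboratory strain S288C, with no added allele, were grown in YNB medium with 2% sucrose that held phosphate at 100 μM, called low phosphate here, or at 1 mM, called high phosphate. Arsenate cultures received 2 μM arsenate and control cultures received sodium chloride in its place to balance ions. RNA of an arsenate culture was labelled with Cy5 and RNA of a control culture with Cy3, and both were hybridised to 1 array. There were 6 low phosphate arrays, a pair for each of 4, 8 and 10 h, and 5 high phosphate arrays, a pair for 4 h, a pair for 8 h and a single one for 10 h.

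Arsenate is an analogue of phosphate. The TDH enzymes, the glyceraldehyde-3-phosphate dehydrogenases, join inorganic phosphate to a triose, and PGK1 passes that phosphate on to ADP to make ATP. When arsenate takes the place of phosphate at the TDH step, the product falls apart in water and the ATP of the PGK1 step is lost while glycolysis runs on. Upstream, the kinases spend ATP to trap hexoses in the cell. HXK2 is the main hexokinase of cells growing on glucose and also takes part in glucose repression, HXK1 is its paralog, GLK1 is a glucokinase that does not use fructose, and EMI2 is the paralog of GLK1. TDH3 and TDH2 are the main dehydrogenases of growing cells, while TDH1 is best known from stationary phase.

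Values are given as log2 of the arsenate signal relative to the control signal, taken as base 2 with the direction from the dyes, so that a value of 0 is no difference and a negative value is less RNA with arsenate. A ratio describes the RNA pool of a culture, in which fewer cells carrying a transcript and less of it per cell cannot be told apart. No levels were used, so 1 gene is never set against another in abundance. HXK1, HXK2, EMI2 and PGK1 had 1 spot each, and the largest gap between the 2 spots of TDH1, TDH2, TDH3 or GLK1 on an array was 0.48, for TDH1. The TDH genes are very similar in sequence, spot sequences were not used here, and binding of the RNA of 1 TDH gene to the spots of another was not tested.

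Between 4484 and 5451 genes had a value on an array. The arsenate reductase gene ARR2 stood at 5.23 to 8.00 on the 6 low phosphate arrays and at 3.34 to 3.59 on the 4 high phosphate arrays that measured it, above 0 in both media. ARR3, the other gene of this check of exposure, was also above 0 on every array but varied more. It read 2.66 to 7.11 at low phosphate and 0.44 to 4.35 at high phosphate, where the 4 h pair read 3.29 and 0.44. Over genes, which are not independent replicates, paired arrays of low phosphate had correlations from 0.767 to 0.936, and those of high phosphate 0.547 (4 h) and 0.199 (8 h). The 2 high phosphate arrays of 8 h also correlated weakly with those of the other times, at 0.303 to 0.383, and neither was set apart from the other by this. All low phosphate arrays were of 1 design and all high phosphate arrays of another, so phosphate and array design cannot be told apart, and a gene's preference for a dye is part of every ratio. Whether replicates came from separate cultures is not stated in the labels, and p-values then measure only the spread between these arrays.

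At low phosphate 3 of the 4 sugar kinases fell with arsenate at 4 and 8 h and lay within 0.23 of control at 10 h, and HXK2 did not fall at any time. HXK1 read -0.85 and -0.66 on the 4 h arrays, -2.46 and -2.44 on those of 8 h and -0.16 and 0.23 on those of 10 h. Its RNA in arsenate cultures was thus 0.592 of control at 4 h and 0.183 of control at 8 h, with no overlap between the 3 times. GLK1 read -1.36 and -1.38 on the 4 h arrays, -1.28 and -1.76 on those of 8 h and 0.07 and 0.12 on those of 10 h. It was already at 0.387 of control at 4 h, and its 4 h and 8 h arrays overlapped. EMI2 read -0.78 and -0.62 on the 4 h arrays, -1.31 and -1.27 on those of 8 h and 0.11 and 0.03 on those of 10 h, a shallower course with 0.409 of control at 8 h. HXK2 read 0.11 and 0.13 on the 4 h arrays, 0.38 and 0.20 on those of 8 h and 0.29 and 0.14 on those of 10 h. All 6 of its arrays lay above 0, in a narrower band than the arrays of the other 7.

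The dehydrogenases parted at 8 h. TDH1 read -0.01 and 0.08 on the 4 h arrays, -2.56 and -2.66 on those of 8 h and -0.67 and -0.48 on those of 10 h. The 3 times did not overlap, and the 8 h level was 0.164 of control, the lowest of the 8 genes at any time. TDH2 read 0.08 and 0.32 on the 4 h arrays, -0.74 and -0.44 on those of 8 h and 0.10 and 0.33 on those of 10 h, so that its 4 h and 10 h arrays overlapped and its 8 h arrays lay below both. TDH3 read -0.00 and 0.15 on the 4 h arrays, -0.06 and -0.36 on those of 8 h and -0.07 and 0.09 on those of 10 h, so that its 8 h arrays lay below those of 4 h and its 10 h arrays overlapped with both. PGK1, the next enzyme of the pathway, read 0.04 and 0.03 on the 4 h arrays, -0.49 and -0.46 on those of 8 h and -0.11 and 0.00 on those of 10 h. Its 8 h arrays were the lowest, at 0.721 of control on average.

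**Figure D1:**
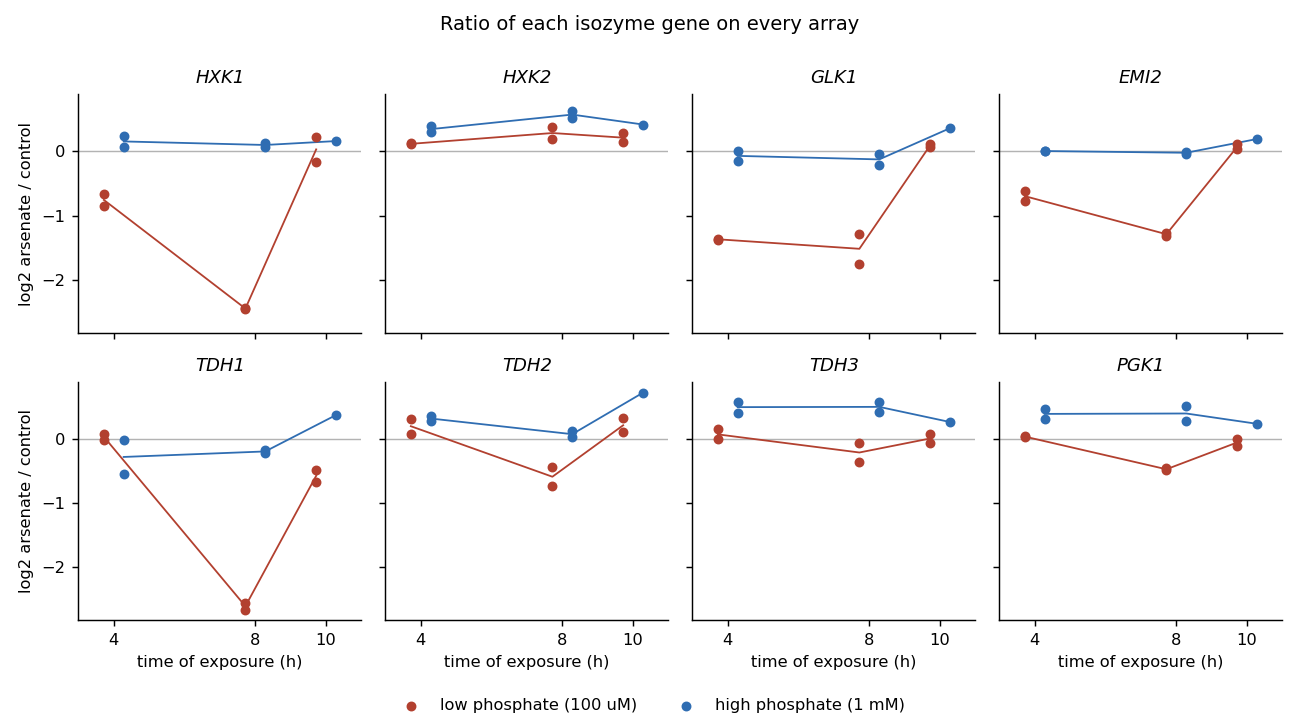
Log2 ratio of arsenate over control (y axis) against time in hours (x axis) for each gene, with 1 point per array and lines through the means of a time, at low phosphate (red) and high phosphate (blue). At low phosphate HXK1, EMI2 and TDH1 dip at 8 h, to -2.45, -1.29 and -2.61, and GLK1 is low at both 4 and 8 h, at -1.37 and -1.52. HXK2 stays above 0 at low phosphate, and every high phosphate point lies between -0.54 and 0.72.

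The first comparison asked whether each gene differed from control at a given time of low phosphate, using limma fitted on 5185 genes with Benjamini-Hochberg adjustment over all of them and a threshold of 0.05. At 4 h GLK1 fell to -1.37 (SE 0.13, adjusted p = 3.22e-07), HXK1 to -0.76 (SE 0.13, adjusted p = 0.000251) and EMI2 to -0.70 (SE 0.12, adjusted p = 0.000284). The other 5 did not pass and lay between 0.04 for TDH1 and 0.20 for TDH2. Of all genes 14.7% were higher and 11.6% lower at 4 h, against 0 and 3 of the 8. Which direction had more calls over all genes depended on single arrays: the 763 higher and 603 lower became 1351 and 348 when replicate 1 of 4 h was left out, 299 and 791 when replicate 2 was, and 883 and 922 after centring. The median of the 8 was 0.04, as was the median of all genes tested. Only 45 of 5266 measured genes had a lower mean than GLK1.

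At 8 h 6 of the 8 genes fell and 0 rose, when 18.3% of all genes were higher and 30.5% lower. TDH1 fell to -2.61 (SE 0.12, adjusted p = 5.21e-12), HXK1 to -2.45 (SE 0.13, adjusted p = 3.4e-11), GLK1 to -1.52 (adjusted p = 3.1e-08) and EMI2 to -1.29 (adjusted p = 7.8e-08). These 4 lay deep in the lower tail of the array, with 13 of 5468 genes lower than TDH1 and 17 lower than HXK1. TDH2 fell to -0.59 (SE 0.13, adjusted p = 0.000857) and PGK1 to -0.47 (SE 0.12, adjusted p = 0.00269), which are moderate places, with 13.2% and 19.6% of genes lower. Both calls rest on few arrays: TDH2 gave -0.44 and adjusted p = 0.0957 without replicate 1 of 8 h, and PGK1 gave adjusted p = 0.0785 without replicate 1 and 0.0651 without replicate 2. TDH3 stood at -0.21 (adjusted p = 0.170) and HXK2 at 0.29 (adjusted p = 0.0536). HXK2 passed as higher after centring each array on its gene median (0.42, adjusted p = 0.00706), with robust empirical Bayes (0.0485), with array weights (0.0108) and without replicate 1 or 2 of 4 h (0.0163 and 0.0207). The median of the 8 was -0.94, against -0.13 over all genes tested. Centring turned the split of all calls at 8 h, 951 higher and 1584 lower as deposited, to 1446 higher and 1181 lower, while the 6 calls among the 8 genes kept their direction.

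At 10 h only TDH1, of the 8, passed as lower than control, at -0.57 (SE 0.12, adjusted p = 0.00135), or 0.672 of control. That call was lost without replicate 1 of 10 h (-0.48, adjusted p = 0.128). HXK1 stood at 0.03 (adjusted p = 0.869), GLK1 at 0.10 (adjusted p = 0.604), EMI2 at 0.07 (adjusted p = 0.678), HXK2 at 0.22 (adjusted p = 0.174), TDH2 at 0.21 (adjusted p = 0.203), TDH3 at 0.01 (adjusted p = 0.965) and PGK1 at -0.05 (adjusted p = 0.761). Of all genes 20.2% were higher and 12.8% lower, or 1047 higher and 662 lower as deposited and 1041 and 1061 after centring. The median of the 8 was 0.05, against 0.07 over all genes tested.

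Ordered by their ratio at 8 h of low phosphate, the genes ran TDH1, HXK1, GLK1, EMI2, TDH2, PGK1, TDH3 and HXK2 from lowest to highest. GLK1 and EMI2 overlapped in their arrays (gap of means 0.23), as did TDH2 and PGK1 (0.12). The other neighbours did not overlap between arrays, with gaps of 0.16 between TDH1 and HXK1, 0.93 between HXK1 and GLK1, 0.70 between EMI2 and TDH2, 0.26 between PGK1 and TDH3 and 0.50 between TDH3 and HXK2. A sugar kinase and a dehydrogenase stood at the low end of the order, and so they did at the high end.

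Averaged over the 3 times of low phosphate, 4 of the 8 genes fell and 1 rose. HXK1 fell to -1.06, TDH1 to -1.05, GLK1 to -0.93 and EMI2 to -0.64. The means of HXK1, TDH1 and EMI2 rest largely on 8 h. Without the 8 h arrays HXK1 was at -0.36 (adjusted p = 0.00928), TDH1 at -0.27 (0.0485) and EMI2 at -0.31 (0.0205). GLK1, whose 4 h and 8 h arrays overlapped, was at -0.64 without the 8 h arrays. HXK2 rose by 0.21 (SE 0.07, adjusted p = 0.0228), when 19.1% of all genes were higher and 20.1% lower, or 992 and 1044. That split was 1496 and 833 without replicate 1 of 4 h, 778 and 668 without replicate 2 of 8 h and 720 and 687 without replicate 1 of 10 h. The HXK2 call was lost without replicate 1 or 2 of 8 h (0.159 and 0.0533), without replicate 1 or 2 of 10 h (0.172 and 0.0753) and without the 8 h arrays (0.235). PGK1 at -0.16 missed the threshold (adjusted p = 0.0644) and passed after centring (0.0365) or without replicate 1 or 2 of 4 h (0.0348 and 0.0445). TDH2 and TDH3 stood at -0.06 (adjusted p = 0.558) and -0.04 (adjusted p = 0.664).

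The change of the response with time was tested on the same arrays, and a constant dye preference cancels in it. A difference between any of the 3 times passed for 57.7% of all genes and for 6 of the 8, namely TDH1 (limma F test, adjusted p = 3.43e-09), HXK1 (1.68e-08), GLK1 (1.66e-06), EMI2 (1.19e-05), TDH2 (0.00123) and PGK1 (0.0279). HXK2 (0.655) and TDH3 (0.317) did not pass. TDH2 lost this call without replicate 1 of 8 h (0.0514), and PGK1 lost it after centring (0.111) or scaling (0.0688) and without either replicate of 8 h (0.202 and 0.169) or of 10 h (0.0780 and 0.114).

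Between 4 and 8 h 5 of the 8 ratios fell and 0 rose, while 12.1% of all genes were higher at 8 h and 21.0% lower. The change was -2.64 for TDH1, -1.69 for HXK1, -0.79 for TDH2 (adjusted p = 0.00259), -0.59 for EMI2 (adjusted p = 0.0108) and -0.51 for PGK1 (adjusted p = 0.0236). GLK1 changed by -0.15 (adjusted p = 0.564) and did not pass. Without replicate 1 of 8 h, EMI2 (0.0939), TDH2 (0.0619) and PGK1 (0.152) no longer passed, which left 2 calls. Without replicate 2 of 8 h, EMI2 (0.0740) and PGK1 (0.134) no longer passed, which left 3. EMI2 also failed after scaling (-0.26, adjusted p = 0.298). PGK1 also failed after centring (-0.32, adjusted p = 0.0721) or scaling (0.0624), with array weights (0.0661) and without replicate 1 or 2 of 10 h (0.0568 and 0.0644). Centring turned the split of all calls, 627 higher and 1088 lower, to 1294 higher and 845 lower, and it was 917 and 789 without replicate 2 of 4 h.

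Between 8 and 10 h 6 of the 8 ratios rose and 0 fell, while 30.6% of all genes were higher at 10 h and 14.8% lower. HXK1 rose by 2.48, TDH1 by 2.03, GLK1 by 1.61, EMI2 by 1.36 and TDH2 by 0.80 (adjusted p = 0.00148). The rise of PGK1, 0.42 (adjusted p = 0.0465), was lost with replicate number as a block (0.0746), after centring (0.22, adjusted p = 0.174) or scaling (0.107), without replicate 1 or 2 of 8 h (0.203 and 0.185) and without replicate 1 or 2 of 10 h (0.155 and 0.320). The median of the 8 was 1.08, against 0.22 over all genes tested, and centring turned the split of all calls, 1586 higher and 768 lower, to 1125 and 1258. From 4 to 10 h GLK1 rose by 1.47, HXK1 by 0.79 (adjusted p = 0.00256) and EMI2 by 0.77 (adjusted p = 0.00183), and TDH1 changed by -0.61 (adjusted p = 0.00965), with 18.1% of all genes higher and 15.4% lower. This split, 939 against 799, was 693 against 1160 when replicate 1 of 4 h was left out, 1434 against 642 when replicate 2 of 4 h was, and 463 against 517 when replicate 2 of 10 h was. Without replicate 1 of 10 h TDH1 did not pass (0.158), and without replicate 2 of 10 h HXK1 did not (0.59, adjusted p = 0.103).

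Isozymes were then set against each other within each array, where the centring of an array cancels, by an exact two-sided sign-flip permutation test over arrays. The 5 pairs were adjusted together, and with 6 arrays the smallest p it can give is 0.0312. At low phosphate TDH1 lay below TDH3 on 6 of 6 arrays. TDH1 minus TDH3 was -0.01 and -0.07 on the 4 h arrays, -2.50 and -2.30 on those of 8 h and -0.60 and -0.57 on those of 10 h. The mean difference was -1.01 (SD 1.11, n = 6, exact permutation p = 0.0312, adjusted p = 0.0781). TDH1 also lay below TDH2 on 6 of 6 arrays, with a mean difference of -0.99 (SD 0.86, n = 6, exact permutation p = 0.0312, adjusted p = 0.0781). HXK1 minus HXK2 was -0.97 and -0.78 on the 4 h arrays, -2.84 and -2.64 on those of 8 h and -0.45 and 0.09 on those of 10 h, below 0 on 5 of 6 arrays. Its mean was -1.27 (SD 1.20, n = 6, exact permutation p = 0.0625, adjusted p = 0.104). GLK1 minus EMI2 averaged -0.29 (SD 0.36, n = 6, exact permutation adjusted p = 0.234) and TDH2 minus TDH3 averaged -0.01 (SD 0.34, n = 6, exact permutation adjusted p = 0.969). No pair passed after adjustment, but with 6 arrays a pair can pass only if most of the 5 pairs reach the smallest p together. The lack of a pass therefore says little about a single pair. The SDs include the change with time, and the separation of TDH1 from TDH3 and of HXK1 from HXK2 was widest at 8 h.

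At high phosphate, where 5 arrays allow no p below 0.0625, no pair passed either. HXK1 lay below HXK2 on 5 of 5 arrays, with a mean difference of -0.32 (SD 0.18, n = 5, exact permutation p = 0.0625, adjusted p = 0.156), and TDH1 below TDH2 on 5 of 5, with a mean difference of -0.42 (SD 0.23, n = 5, exact permutation p = 0.0625, adjusted p = 0.156). TDH1 minus TDH3 averaged -0.57 (SD 0.41, exact permutation adjusted p = 0.208), GLK1 minus EMI2 -0.04 (adjusted p = 0.688) and TDH2 minus TDH3 -0.15 (adjusted p = 0.547). Whether these differences between isozymes differed between the media was not tested.

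**Figure D2:**
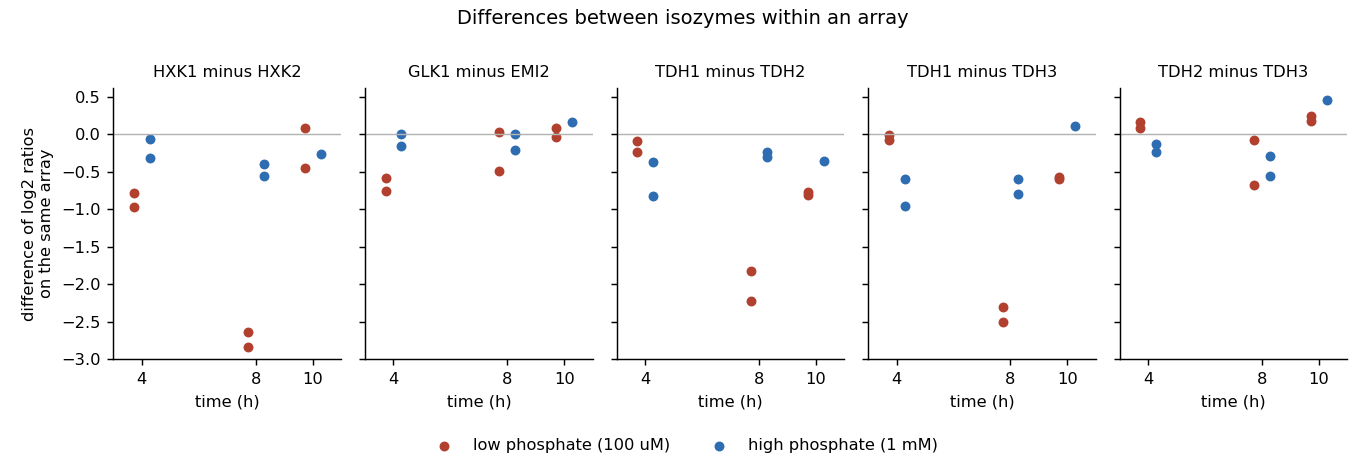
Difference between the log2 ratios of 2 isozymes on the same array (y axis) against time in hours (x axis), 1 point per array, at low phosphate (red) and high phosphate (blue). On the 8 h arrays of low phosphate TDH1 minus TDH3 is -2.50 and -2.30 and HXK1 minus HXK2 is -2.84 and -2.64, while TDH2 minus TDH3 lies between -0.68 and 0.46 over all arrays.

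At high phosphate no gene of 4816 passed limma's adjusted test at 4, 8 or 10 h, so 0% of all genes were higher and 0% lower, and the same held for the mean of the times, the differences between times and the test of any difference between times (0%). ARR2 was among the genes that did not pass, though it stood at 3.34 to 3.59 on the high phosphate arrays that measured it. A lack of calls here therefore does not show that no gene responded. At an unadjusted p under 0.05, 4 h had 132 genes higher and 842 lower, 8 h had 317 higher and 911 lower, 10 h had 230 higher and 347 lower, and the mean of the times had 459 higher and 1171 lower. For 8 h minus 4 h these counts were 152 and 177, for 10 h minus 8 h 260 and 89, for 10 h minus 4 h 133 and 81, and 278 genes had such a p for any difference. The count of 0 turned on the 8 h arrays, and a fit without 1 of them takes its spread from the 4 h pair alone. Without replicate 1 of 8 h, 45 genes were higher and 457 lower at 8 h, and 7 and 30 for 8 h minus 4 h. Without replicate 2, 29 were higher and 535 lower at 8 h and 5 and 140 for 8 h minus 4 h, while 118 passed for 10 h minus 8 h and 75 for any difference. Of the 8 genes, 4, 3 and 2 had an unadjusted p under 0.05 at 4, 8 and 10 h and 4 for the mean of the times.

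The high phosphate ratios of HXK2, TDH3 and PGK1 were above 0 on every array. HXK2 read 0.30 and 0.39 on the 4 h arrays, 0.63 and 0.52 on those of 8 h and 0.42 on the single 10 h array. TDH3 read 0.58 and 0.41 on the 4 h arrays, 0.58 and 0.42 on those of 8 h and 0.27 on the single 10 h array. PGK1 read 0.48 and 0.31 on the 4 h arrays, 0.52 and 0.28 on those of 8 h and 0.24 on the single 10 h array. At 4 h 99.0% of measured genes had a lower mean than TDH3, 98.4% a lower one than PGK1 and 98.1% a lower one than HXK2. TDH2 was also above 0 on 5 of 5 arrays but less evenly, with 0.36 and 0.29 on the 4 h arrays, 0.03 and 0.13 on those of 8 h and 0.72 on the single 10 h array. The means of the times were 0.45 for HXK2 (SE 0.06, adjusted p = 0.0679), 0.42 for TDH3 (adjusted p = 0.0693), 0.37 for TDH2 (adjusted p = 0.0692) and 0.34 for PGK1 (adjusted p = 0.0818).

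For these 4 means, leaving out either 8 h array left 1 array at 8 h and 1 at 10 h. The spread of such a fit comes from the 4 h pair alone, so its calls do not show stability. Without replicate 1 of 8 h, HXK2 rose by 0.43 (adjusted p = 0.0223), TDH2 by 0.39 (0.0239), TDH3 by 0.39 (0.0281) and PGK1 by 0.30 (0.0387). Without replicate 2 they rose by 0.47 (0.0226), 0.36 (0.0284), 0.45 (0.0257) and 0.38 (0.0314). In those fits 1260 of all genes (327 higher, 933 lower) and 1255 (250 higher, 1005 lower) passed as well, so the calls of these means changed together with those of many other genes. HXK2 at 8 h passed without replicate 2 of 8 h (0.63, adjusted p = 0.0467).

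The genes that fell most at low phosphate stayed near control at high phosphate. HXK1 read 0.24 and 0.08 on the 4 h arrays, 0.07 and 0.13 on those of 8 h and 0.16 on the single 10 h array. GLK1 read -0.14 and 0.01 on the 4 h arrays, -0.03 and -0.21 on those of 8 h and 0.36 on the single 10 h array. EMI2 read 0.01 and 0.01 on the 4 h arrays, -0.04 and -0.00 on those of 8 h and 0.19 on the single 10 h array. No array of these 3 lay beyond 0.36 from control. TDH1 read -0.02 and -0.54 on the 4 h arrays, -0.22 and -0.17 on those of 8 h and 0.37 on the single 10 h array, with replicates at 4 h far apart and a mean of the times of -0.03 (adjusted p = 0.841). The median of the 8 for the mean of the times was 0.24, against -0.12 over all genes tested.

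The difference between the media was tested on all 11 arrays as low minus high phosphate, over 4841 genes, and holds the array design as well as phosphate. The fit takes 1 spread per gene from both media together, though paired arrays were less alike at high phosphate. Its p-values therefore do not measure the spread of high phosphate alone. At 4 h the ratios of GLK1 (-1.30, adjusted p = 0.00595), HXK1 (-0.91, adjusted p = 0.0167) and EMI2 (-0.70, adjusted p = 0.0161) were lower at low phosphate, and 0 of the 8 were higher. Of all genes 7.60% were higher and 1.36% lower at 4 h, or 368 and 66, and 213 and 187 after centring. HXK1 failed without replicate 1 of high phosphate at 4 h (0.0886) or replicate 2 of low phosphate at 4 h (0.0528), and EMI2 without replicate 1 or 2 of high phosphate at 4 h (0.0826 and 0.0708). Only GLK1 was left without replicate 1 of high phosphate at 4 h. TDH3, at -0.43 (adjusted p = 0.127), passed as lower after centring (-0.61, adjusted p = 0.0315) or scaling (-0.55, adjusted p = 0.0389).

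At 8 h 7 of the 8 ratios were lower at low phosphate than at high phosphate and 0 were higher, when 18.8% of all genes were higher and 9.92% lower. The differences were -2.55 for HXK1 (adjusted p = 0.000222), -2.41 for TDH1 (adjusted p = 0.000242), -1.39 for GLK1 (adjusted p = 0.00126), -1.27 for EMI2 (adjusted p = 0.000611) and -0.87 for PGK1 (adjusted p = 0.00285). TDH3 (-0.71, adjusted p = 0.0109) and TDH2 (-0.66, adjusted p = 0.0156) also differed, though neither passed with array weights (0.0574 and 0.0729). TDH3 failed without replicate 2 of low phosphate at 8 h (-0.56, adjusted p = 0.0898) and TDH2 without replicate 1 (-0.52, adjusted p = 0.120). HXK2 differed by -0.29 and did not pass (adjusted p = 0.139). The median of the 8 was -1.07, against 0.11 over all genes tested.

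At 10 h 0 of the 8 differences passed, when 2.60% of all genes were higher and 1.67% lower, or 126 and 81, and 227 and 291 after centring. At an unadjusted p under 0.05, there were 2 of the 8, and of all 4841 genes 712 were higher and 386 lower. The 207 calls over all genes became 0 when either low phosphate array of 8 h, or replicate 2 of low phosphate at 10 h, was left out. TDH1, at -0.95 (adjusted p = 0.0513), passed after centring (-1.02, adjusted p = 0.0265), with robust empirical Bayes (0.0485), with array weights (0.0269), without replicate 2 of high phosphate at 4 h (0.0472) and without replicate 1 or 2 of high phosphate at 8 h (0.0158 and 0.0203). High phosphate had 1 array at 10 h, whose spread was taken from the other groups. For the mean of the times 7 of the 8 were lower and 0 higher, with 19.0% of all genes higher and 4.92% lower, or 918 and 238, and 776 and 530 after centring. HXK1 differed by -1.20, TDH1 by -1.02, GLK1 by -0.99, EMI2 by -0.70, PGK1 by -0.51 (adjusted p = 0.00634), TDH3 by -0.46 (adjusted p = 0.0128) and TDH2 by -0.43 (adjusted p = 0.0174). HXK2, at -0.24 (adjusted p = 0.0660), passed as lower after centring (-0.33, adjusted p = 0.0199) or scaling (0.0245). Without the 8 h arrays 3 calls were left, and TDH1 (-0.32, adjusted p = 0.192), TDH2 (0.129), TDH3 (0.0946) and PGK1 (0.0989) did not pass. TDH2 also failed without replicate 1 of low phosphate at 8 h (0.0553) or at 10 h (0.0521).

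A list of 14 other genes of glycolysis and its control also parted at 8 h of low phosphate. It holds the GPM1 homologues GPM2 and GPM3. It also holds PFK26 and PFK27, kinases that make a regulator of glycolysis and do not carry out a step. Of these 14, 4 rose at 4 h (PFK26, PFK27, FBA1 and ENO2) and 2 fell. At 8 h 0 rose and 8 fell, PFK26 and PFK27 among them, and at 10 h 1 rose and 1 fell. The median at 8 h was -0.32, against -0.13 over all genes tested. Over all genes, as given above, the 4 h shares were 14.7% higher and 11.6% lower, those of 8 h 18.3% higher and 30.5% lower, and those of 10 h 20.2% higher and 12.8% lower. GPM2, a homologue of the phosphoglycerate mutase GPM1, fell to -1.94 at 8 h (adjusted p = 2.85e-09), the enolase ENO1 to -1.47 (adjusted p = 5.57e-08) and PYK2, the minor pyruvate kinase, to -1.31 (adjusted p = 7.88e-08). Their partners lay nearer to control. GPM1 stood at -0.44 and passed as lower (adjusted p = 0.00619). The main enolase ENO2 stood at -0.27 (adjusted p = 0.0705) and the main pyruvate kinase CDC19 at -0.26 (adjusted p = 0.0895). Between 4 and 8 h 0 of the 14 rose and 9 fell, with 12.1% and 21.0% of all genes, and between 8 and 10 h 5 rose and 0 fell, with 30.6% and 14.8%.

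At high phosphate 0 of 13 tested members of that list passed. The genes with the largest means of the times there were CDC19 at 0.74 (adjusted p = 0.0692), the phosphofructokinase subunit PFK1 at 0.48 (adjusted p = 0.0679) and ENO2 at 0.44 (adjusted p = 0.0679). CDC19 was above 0 on all 5 high phosphate arrays, from 0.46 to 0.88. As low minus high phosphate at 8 h, 0 of 13 were higher and 11 lower (18.8% and 9.92% of all genes), among them ENO1 at -1.70 (adjusted p = 0.000691), CDC19 at -0.94 (adjusted p = 0.00647) and PFK1 at -0.88 (adjusted p = 0.00316). At 4 h 1 was higher, the regulatory kinase PFK26, and 0 lower (7.60% and 1.36% of all genes). At 10 h 0 were higher and 2 lower (2.60% and 1.67%).

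**Figure D3:**
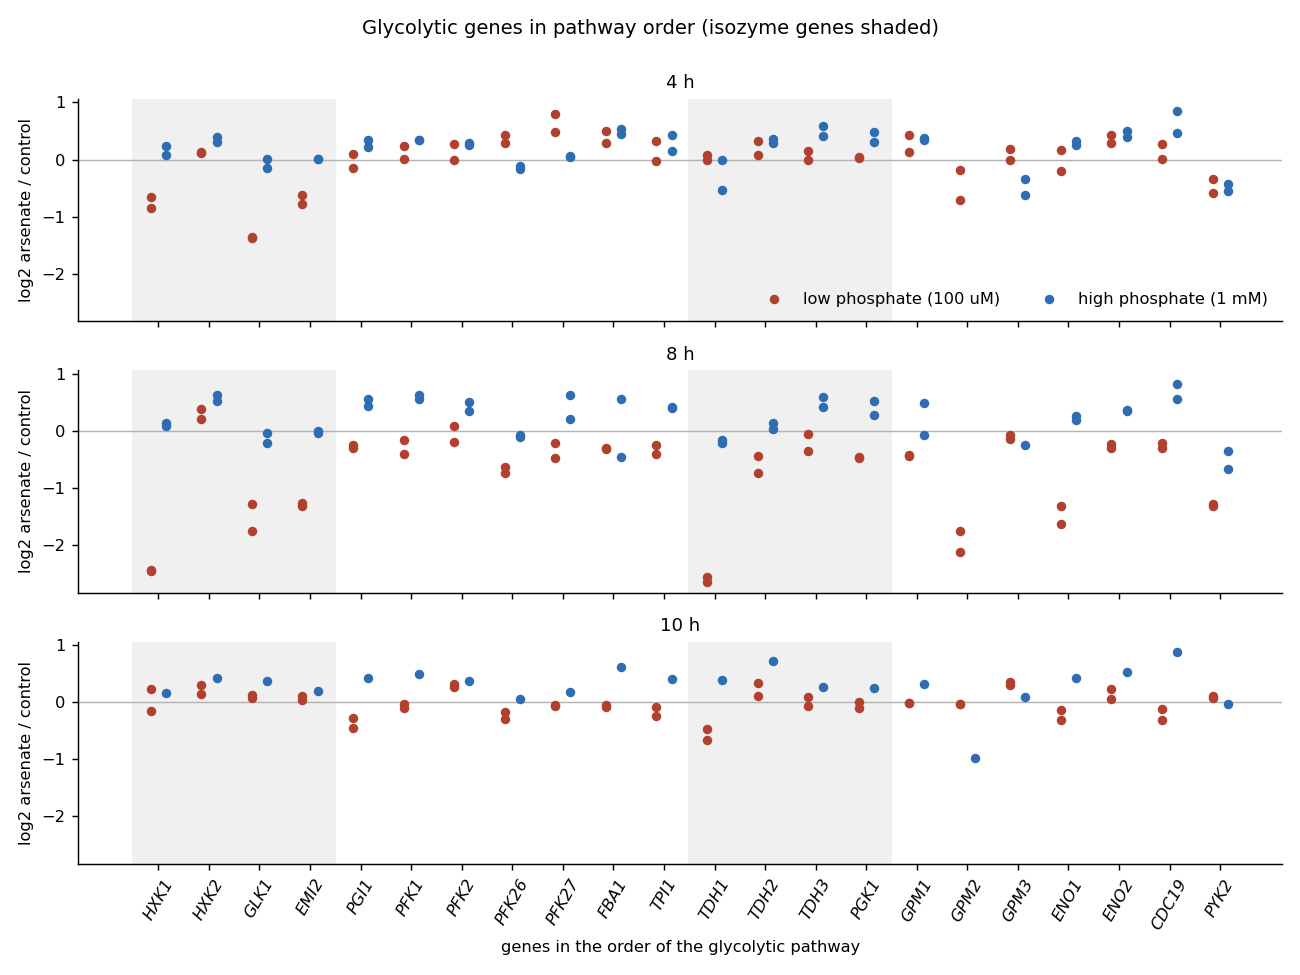
Log2 ratio of arsenate over control (y axis) for glycolytic genes in the order of the pathway (x axis) at 4, 8 and 10 h, 1 point per array, at low phosphate (red) and high phosphate (blue), with the 8 isozyme genes shaded. The regulatory kinases PFK26 and PFK27 are drawn after PFK2 but are not steps of the pathway. At 8 h of low phosphate HXK1, GLK1, EMI2, TDH1, GPM2, ENO1 and PYK2 lie below -1 and HXK2 is above 0 on both arrays.

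Genes at the entry and the side branches of the pathway were looked at for low phosphate. PGM2, the main phosphoglucomutase, which links glucose phosphate to glycogen and trehalose, fell at 4 and 8 h, to -0.81 and -2.80, and rose at 10 h, to 0.61. Its 8 h mean lay below those of TDH1 and HXK1. The minor phosphoglucomutase PGM1 stood at 0.09, 0.03 and 0.46, of which the last passed (adjusted p = 0.00941), and the invertase SUC2, which splits the sucrose of the medium, stood at 0.27, 0.04 and -0.08 and did not pass. In the glycerol branch, which leaves glycolysis above the TDH step, 1 of 4 genes rose and 2 fell at 4 h, 0 rose and 2 fell at 8 h, and 1 rose and 0 fell at 10 h, when the shares of all genes higher and lower were 14.7% and 11.6% (4 h), 18.3% and 30.5% (8 h) and 20.2% and 12.8% (10 h). The dehydrogenase GPD1 stood at -1.44, -0.39 and 0.44 and the phosphatase GPP2 at -1.08, -0.76 and -0.09 at 4, 8 and 10 h, lowest at 4 h and so earlier than TDH1. GPD2, the paralog of GPD1, rose by 0.40 at 4 h (adjusted p = 0.0222). Of the gluconeogenesis genes, PCK1 rose by 0.55 at 4 h (0.13 and 0.97 on its arrays), stood at -0.20 at 8 h (adjusted p = 0.300) and fell to -1.12 at 10 h, and FBP1 was not tested. None of these genes was called at high phosphate, where PCK1 was not tested.

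Of 13 regulators of glycolytic and glucose-repressed genes, 4 rose and 0 fell at 4 h of low phosphate, 1 rose and 6 fell at 8 h, and 4 rose and 2 fell at 10 h. The same shares of all genes apply (14.7% and 11.6%, 18.3% and 30.5%, and 20.2% and 12.8%). The 1 that rose at 8 h was MIG3, named here after its values were seen, with a value on 1 of the 2 arrays (0.43, adjusted p = 0.0463). The stress activator MSN4 stood at 0.40, -0.89 and -0.42 at 4, 8 and 10 h and passed at each time. RAP1, which binds promoters of glycolytic and ribosomal protein genes, stood at -0.00, 0.16 and 0.73 and passed at 10 h (adjusted p = 0.000142). The glucose repressor MIG2 stood at 0.55, -0.18 and 0.50 and passed at 4 and 10 h. At high phosphate 0 of 12 tested regulators passed, and the genes with the largest means of the times were RGT1 at -0.42 (adjusted p = 0.0784), MIG1 at -0.29 (adjusted p = 0.191) and MSN2 at -0.17 (adjusted p = 0.770). MSN2 read -1.99 on replicate 1 and 0.18 on replicate 2 of 8 h. RNA levels of these factors do not measure their activity.

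Genes with the most similar profile were taken by the root mean square difference of log2 ratio over the 11 arrays, among 3929 genes measured on all of them, for members whose SD over the low phosphate arrays was above 0.5. That held for TDH1 (SD 1.24), HXK1 (1.14), GLK1 (0.81) and EMI2 (0.61), and the other 4 had SDs from 0.11 for HXK2 to 0.43 for TDH2. Nearest to HXK1 were MSC1 (0.29), RGI1 (0.30), the glycogen branching enzyme GLC3 (0.31), the cytosolic catalase CTT1 (0.36) and STF2 (0.38). Nearest to GLK1 were AIM17 (0.26), CTT1 (0.26), the small heat shock protein HSP12 (0.29), the mitochondrial aldehyde dehydrogenase ALD4 (0.31) and the mitochondrial peroxiredoxin PRX1 (0.32). EMI2 had the smallest differences, to the aldose reductase GRE3 (0.14), PRX1 (0.16), the trehalase NTH2 (0.20) and the trehalose synthesis enzymes TPS2 (0.21) and TPS1 (0.22). Nearest to TDH1 were ICY1 (0.34), the acid phosphatase PHO11 (0.35), CSS1 (0.42), the vacuolar mannosidase AMS1 (0.42) and YAR068W (0.43). The neighbours of TDH1 had 4 h means from 0.01 to 0.63, whereas all those of HXK1, GLK1 and EMI2 had 4 h means of -0.54 or less, and no gene was in the list of TDH1 and of another member. All profiles share the same arrays, so the likeness is a description only.

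**Figure D4:**
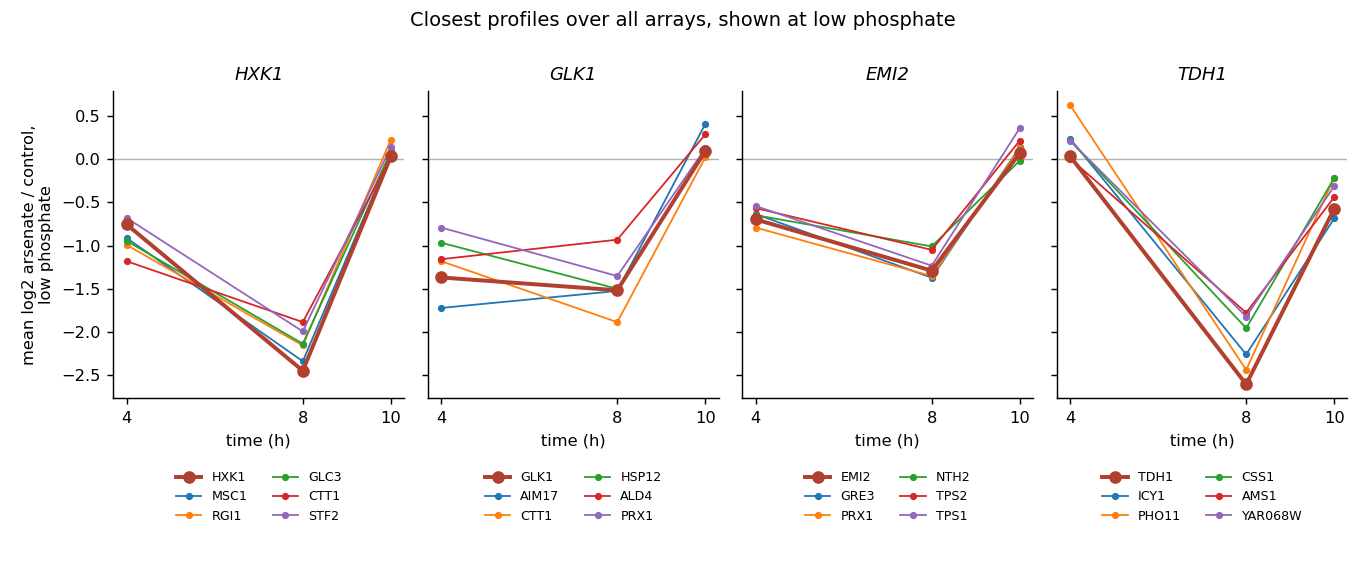
Mean log2 ratio of arsenate over control (y axis) against time in hours (x axis) at low phosphate for HXK1, GLK1, EMI2 and TDH1 (thick red) and the 5 genes nearest to each over all 11 arrays (thin lines), n = 2 arrays per time. All lines of the HXK1, GLK1 and EMI2 panels are below 0 at 4 and 8 h, while TDH1 and its neighbours are at 0.01 to 0.63 at 4 h and at -1.78 or lower at 8 h.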

How the data were processed

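The deposited values of both tables were taken as log2 ratios of Cy5 over Cy3, normalized by the authors, who used spots of flag value 0 for normalization per the labels. The sources used here do not give the method, log base, direction or centring. Of 10807 spots per table, 9202 (low phosphate) and 9271 (high phosphate) named 1 gene each, and spots of a gene were averaged. Group means were fitted with limma 3.58.1 in R 4.3.3, apart for low phosphate (3 residual degrees of freedom), high phosphate (2) and their difference (5), on genes with a value in every group and at least 1 residual degree of freedom. Tests were two-sided, with Benjamini-Hochberg adjustment over all genes and a threshold of 0.05, and were tested on simulated data. For simulated 8 h changes of 0.5, the fit of low phosphate recovered 39 of 50 and that of high phosphate 12 of 50. For changes of 2 it recovered 50 of 50 and 49 of 50. The simulated noise was independent between genes, and the real high phosphate fit called no gene, so these rates may not hold for the deposited arrays. Standard errors (SE) are moderated. Pairs of isozymes were tested by exact sign flips with numpy 2.4.6. Alternatives were centring and scaling of arrays, complete genes, median of spots, robust empirical Bayes, array weights, a replicate block, and leaving out arrays or 8 h.

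Same-numbered low phosphate arrays deviated together, with correlations of 0.136, 0.190 and 0.109 over genes, so replicate number, which the labels give, was taken to pair them. That pairing entered only the replicate block among the alternatives, and the p-values of the main fits do not account for it. The 8 genes, the pathway lists and the tests were chosen with earlier results of these data known. Other genes were named as the 3 of each list with the largest absolute mean over times in each medium, and the 5 closest profiles. Genes outside these lists, intensities, backgrounds and sequences were not used here.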

Additional observations from a re-analysis of the deposited data

Results flagged for a closer look

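The response to arsenate of several of the 8 genes differed between times of low phosphate, or between the media at a matched time, by limma's test of the difference itself (adjusted p under 0.05 over all genes). No group was large enough to look for a single array far from the others.

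At low phosphate, 8 h minus 4 h was -2.64 for TDH1, -1.69 for HXK1, -0.79 for TDH2, -0.59 for EMI2 and -0.51 for PGK1. For 10 h minus 8 h the values were 2.48 for HXK1, 2.03 for TDH1, 1.61 for GLK1, 1.36 for EMI2, 0.80 for TDH2 and 0.42 for PGK1. For 10 h minus 4 h they were 1.47 for GLK1, 0.79 for HXK1, 0.77 for EMI2 and -0.61 for TDH1. The shares of all genes higher and lower were 12.1% and 21.0%, 30.6% and 14.8%, and 18.1% and 15.4%, in the same order. Centring or scaling ended both PGK1 calls, and scaling ended the EMI2 call for 8 h minus 4 h. Calls lost when an array was left out, among them TDH2 for 8 h minus 4 h, are given above.

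As low minus high phosphate, the differences at 4 h were -1.30 for GLK1, -0.91 for HXK1 and -0.70 for EMI2. At 8 h they were -2.55 for HXK1, -2.41 for TDH1, -1.39 for GLK1, -1.27 for EMI2, -0.87 for PGK1, -0.71 for TDH3 and -0.66 for TDH2. For the mean of the times they were -1.20 for HXK1, -1.02 for TDH1, -0.99 for GLK1, -0.70 for EMI2, -0.51 for PGK1, -0.46 for TDH3 and -0.43 for TDH2. Phosphate and array design cannot be told apart in these.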

How the results depend on the processing

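With 1 or 2 arrays per group the spread was shared between times, and spots' signal over background is unknown. Of 160 results of single genes of the 8, robust empirical Bayes changed 2, array weights 5, scaling 6 and centring 8. Leaving out the 8 h arrays changed 5 of 24. Median of spots and the restriction to genes measured on every array changed 0 of 160. Neither could move the values of the 8, which had 1 or 2 spots each and a value on every array. Only the spread and the adjustment shared with other genes could move, so these 0 changes say little about stability. Leaving out 1 array kept 950 of 1000, with 34 lost and 16 gained, and no direction of a called value reversed. Many of those 1000 results had no call to lose, such as all those of high phosphate. For others the value does not use the array left out. The share kept therefore overstates how stable the calls are. The replicate block ended 1 call, PGK1 for 10 h minus 8 h of low phosphate (adjusted p = 0.0746), and changed no other call of the 8 genes. It brought low minus high phosphate at 10 h from 207 to 13 of all genes. High phosphate has 1 such pair, at -0.0245, so its arrays share only a number. With an array left out no pair of isozymes could pass, as 5 arrays allow no p below 0.0625, so those tests say nothing of stability.

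Counts of the 8 moved for 8 h minus 4 h of low phosphate from 5 to 3 with scaling, for low minus high phosphate at 10 h from 0 to 1 with centring, robust empirical Bayes or array weights, and for its mean of the times from 7 to 3 without the 8 h arrays. Counts over all genes moved with array weights from 1366 to 329 at 4 h of low phosphate, from 1738 to 1150 for 10 h minus 4 h, from 1392 to 884 for low minus high phosphate at 8 h and from 207 to 706 at 10 h. Scaling moved low minus high phosphate from 434 to 721 at 4 h, from 1392 to 915 at 8 h and from 207 to 331 at 10 h. Centring gave 518 at 10 h, and genes measured on every array gave 274 at 4 h. Without the 8 h arrays the mean of the times gave 1148 in place of 2036 genes at low phosphate and 1 in place of 0 at high phosphate. The cause was not tested.

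With 1 array left out, counts over all genes at low phosphate ran from 1380 to 3048 at 8 h, from 609 to 2326 at 10 h, from 932 to 2187 for 8 h minus 4 h, from 1404 to 2943 for 10 h minus 8 h and from 980 to 2076 for 10 h minus 4 h. At high phosphate they ran from 0 to 1 at 4 h, 0 to 564 at 8 h, 0 to 1 at 10 h, 0 to 1260 for the mean of the times, 0 to 145 for 8 h minus 4 h, 0 to 118 for 10 h minus 8 h and 0 to 75 for any difference. The lowest of these low phosphate counts came from leaving out an 8 h or a 10 h array, while at 4 h the lowest came from leaving out a 4 h array. At high phosphate every count above 1 came from leaving out an 8 h array, which leaves the 4 h pair alone to give the spread. For low minus high phosphate they ran from 101 to 980 at 4 h, 629 to 1723 at 8 h, 0 to 599 at 10 h and 591 to 1701 for the mean of the times. Counts of the 8 ran from 0 to 1 at 10 h of low phosphate, 2 to 5 for 8 h minus 4 h, 0 to 1 at 8 h of high phosphate, 0 to 4 for its mean of the times, 1 to 3 for low minus high phosphate at 4 h and 0 to 1 at 10 h.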
